A study of Caenorhabditis elegans with 6 samples.

Results

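The chemoreceptor genes of *Caenorhabditis elegans* are described here as far as whole worms gave reads for them. They were taken as the genes whose symbol belongs to one of 22 serpentine receptor families, written sra, srab, srb, srbc, srd, sre, srg, srh, sri, srj, srm, srn, srr, srsx, srt, sru, srv, srw, srx, srxa, srz and str followed by a number, and which had at least 60 reads summed over the 6 libraries. Of 1309 genes with such a symbol, 63 reached 60 reads, among 46748 features in the table. RNA came from whole hermaphrodites aged 5 days, of strain N2, which is the usual laboratory wild type. Libraries fell into 2 groups of 3, one with the perturbation label Y6B3B.9, the name of a gene, and one with the label L4440, which is the name of the plasmid that serves, without an insert, as the control in feeding RNA interference. The labels name no agent, dose or direction for the perturbation, and do not say whether the libraries of a group came from separate cultures, so p-values measure the spread between these libraries, which may be technical.

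Chemoreceptors of this kind are G protein-coupled receptors that span the membrane several times, and the worm has one of the largest sets known in any animal. They sit mainly in the cilia of a small number of sensory neurons in the head and tail, where one neuron makes many different receptors, and through G proteins they act on cyclic GMP or lipid signals that open ion channels. Known ligands include volatile odours such as diacetyl and the ascaroside pheromones, by which worms sense crowding and mates. The families are usually grouped into the Sra superfamily (sra, srab, srb, sre), the Str superfamily (srd, srh, sri, srj, srm, srn, str), the Srg superfamily (srg, srt, sru, srv, srx, srxa) and solo families (srbc, srr, srsx, srw, srz). Most of these genes are known only by sequence, and no ligand is given below for such a gene.

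Library totals lay between 23103541 and 32012257 counted reads. Y6B3B.9 itself was higher under its own label, by 0.65 on the log2 scale (SE 0.074, adjusted p = 1.26e-06 in edgeR's quasi-likelihood test). Its reads were 1057, 1211 and 969 in those libraries and 578, 557 and 666 in the L4440 libraries. The direction of the perturbation is thus not known, and "higher" and "rose" below mean higher under the Y6B3B.9 label. The transcriptome differed widely between the labels: 84.1% of the 14265 genes tested passed an adjusted p of 0.05, 46.4% as higher and 37.7% as lower.

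Most receptor genes had few or no reads in whole worms. Of the 1309 genes, 224 had no read in any library and 1022 had between 1 and 59 reads in all. Most of the reads therefore came from a small part of the set: the 63 genes held 19252 reads, a median of 129 reads each, and the 4 with the most reads held 39.6% of these. Members were found in 18 of the 22 families. The families srb, srbc, sru and srxa, with 12, 71, 39 and 17 genes, had none. The lone srn gene was a member, and 5 of the 9 srr genes reached 60 reads, while the large srh family had 5 of 220 and the srw family 2 of 109. By superfamily 10 of 124 Sra genes, 29 of 587 Str genes, 12 of 309 Srg genes and 12 of 289 genes of the solo families were members. Chromosome V, where 68.0% of the receptor genes lie, held 55.6% of the members (35 genes). Chromosomes II and IV held 10 each, III held 4, I held 3 and X held 1. In a whole-worm library a transcript made by few cells and a transcript at a low level in many cells cannot be told apart.

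**Figure D1:**
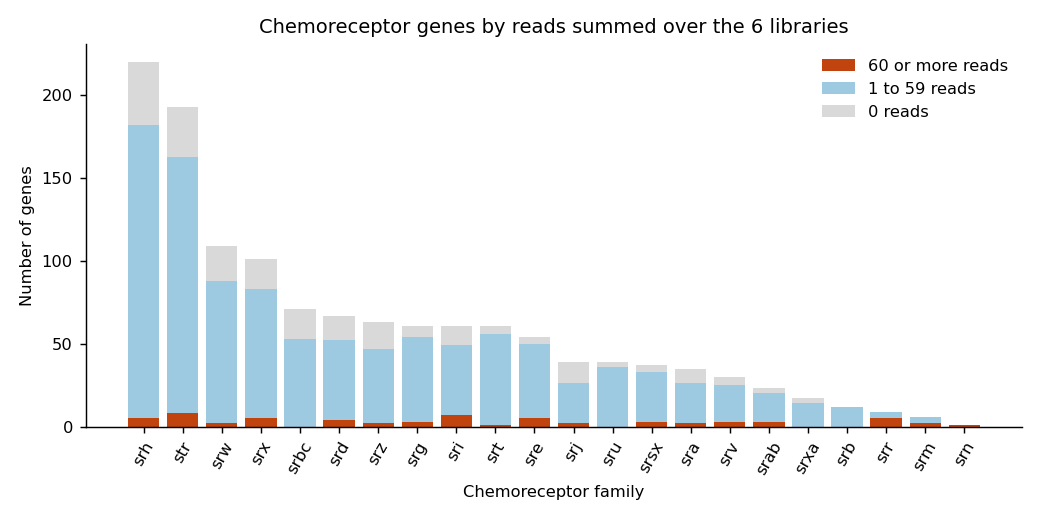
Number of genes in each chemoreceptor family (vertical axis) with 60 or more reads, 1 to 59 reads or 0 reads summed over the 6 libraries. The part with 60 or more reads is thin in every large family, such as 5 of 220 srh genes, and reaches 5 of 9 in srr.

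The members with the fewest reads were str-173 (62 reads), sri-39 (63) and srv-2 (64). Just below lay srz-97 (59), srd-3 (57) and srh-2 (56). srz-97 had 14, 17 and 10 reads under the Y6B3B.9 label and 4, 7 and 7 under the L4440 label.

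The members with the highest mean level over the 6 libraries were str-176, str-7, srr-4 and srv-1. Per kilobase of gene length, this mean was 7.82, 7.62, 7.59 and 7.45 CPM (reads of a gene relative to the TMM-adjusted size of its library). The next were sre-4 at 4.84, sra-14 at 3.84 and sri-43 at 3.53 CPM per kilobase, and the median of the 63 genes was 0.717. Their order was not the same under both labels. In the Y6B3B.9 libraries the mean levels of str-176, str-7, srr-4 and srv-1 were 8.31, 9.88, 10.5 and 8.99 CPM per kilobase, and in the L4440 libraries they were 7.33, 5.37, 4.71 and 5.90. The mean of sri-43 joins 7.04 CPM per kilobase under the Y6B3B.9 label with 0.0274 under the L4440 label.

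str-176 (WBGene00006220, Str superfamily, chromosome IV, 8460999 to 8463816, minus strand, build WBcel235) had 512, 413 and 336 reads in the Y6B3B.9 libraries and 304, 266 and 398 in the L4440 libraries. Its levels overlapped between the labels, at 13.8 ± 1.36 against 12.2 ± 1.49 CPM (SD over 3 libraries in each group, as for the levels that follow), and its log2 change was 0.18 (SE 0.10, edgeR adjusted p = 0.119). It passed the threshold without L4440 replicate 3 (log2 change 0.29). It had the highest level per kilobase of the members in the L4440 libraries and the fourth highest in the Y6B3B.9 libraries.

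str-7 (WBGene00006075, Str superfamily, chromosome V, 16097824 to 16099541, minus strand) had 442, 511 and 389 reads under the Y6B3B.9 label and 189, 225 and 219 under the L4440 label. It rose from 8.04 ± 0.864 to 14.8 ± 1.38 CPM (log2 change 0.88, SE 0.10, edgeR adjusted p = 1.71e-06). srr-4 (WBGene00005655, chromosome V, 5019224 to 5022363, plus strand) had 529, 509 and 349 reads against 174, 167 and 197. It rose from 6.81 ± 0.135 to 15.1 ± 1.22 CPM (log2 change 1.15, SE 0.093, edgeR adjusted p = 2.79e-08). In both genes every Y6B3B.9 library lay above every L4440 library.

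srv-1 (WBGene00005712, Srg superfamily, chromosome III, 6850385 to 6853203, plus strand) had 317, 346 and 286 reads against 163, 189 and 191, again with no overlap. Its level went from 6.89 ± 0.607 to 10.5 ± 0.899 CPM (log2 change 0.61, SE 0.11, edgeR adjusted p = 9.29e-05). Of its annotated exons 7.6% overlap zak-1 on the other strand, itself higher by log2 1.21. Among the other abundant members, sra-14 rose by log2 0.58 (SE 0.16, edgeR adjusted p = 0.00376) from 3.25 ± 0.733 to 4.85 ± 0.533 CPM, but did not pass once a trend with gene length was removed (0.24, edgeR adjusted p = 0.183). str-245, with 126 to 148 reads per library against 32 to 53, rose by log2 1.56 (SE 0.16) and did not overlap between the labels. srsx-34 stood at 3.59 ± 0.314 against 3.56 ± 1.04 CPM (log2 change 0.016, SE 0.18, edgeR adjusted p = 0.936).

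**Figure D2:**
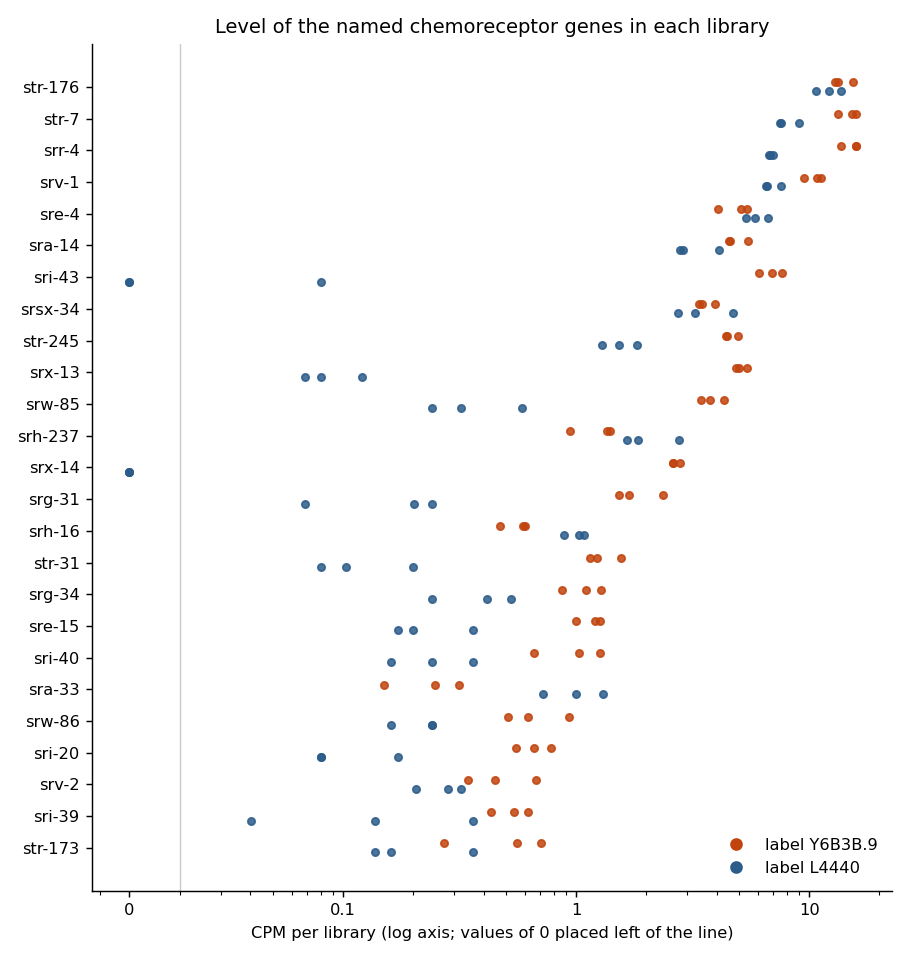
CPM in each library (horizontal log axis, values of 0 placed left of the grey line) for the 25 members named by the rule for named genes, ordered by total reads. Each point is a library: sri-43, srx-13 and srx-14 have Y6B3B.9 libraries above 2 CPM and L4440 libraries at or near 0, sra-33 lies the other way, and str-176 overlaps.

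Most members that could be tested were higher under the Y6B3B.9 label. Of the 63 genes, 61 passed the filter on low counts. Of these, 48 rose (78.7%, against 46.4% of all genes tested) and 4 fell (6.56%, against 37.7%), and 9 were not called. A rise of at least 2-fold was fitted for 32 (52.5%, against 23.6% of all genes tested) and a fall of at least 2-fold for 1 gene (against 10.2% of all genes tested). The median log2 change was 1.05, with quartiles of 0.62 and 1.53, against 0.22 over all genes tested. In 49 of the 61 genes the libraries of the 2 labels did not overlap, or 80.3% against 85.4% of all genes tested, 46 of them higher and 3 lower. Rescaling moved the log2 change of all genes by a median of -0.15 (DESeq2's size factors) or 0.29 (library totals). With these scalings 43 and 51 members rose and 4 and 2 fell.

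Sparse transcripts as a whole moved the same way, which narrows what can be read from these counts. Over the 6869 tested genes with 60 to 2229 reads, the range of the members, 66.8% rose, 11.7% fell, 38.5% rose and 6.14% fell at least 2-fold, 79.7% did not overlap between the labels and the median log2 change was 0.80. The members were also shorter than most genes, with a median length of 1049 against 1302 bases, and over all genes the log2 change was lower in longer genes. With that trend removed 34 members rose, 5 fell and their median was 0.73, while 37% of all genes tested rose, 44% fell and their median was -0.028. For the tested genes with 60 to 2229 reads the median with that trend removed was 0.52, much nearer to that of the members. The filter also leans to one side. Of the 61 genes, 37 had fewer than 3 L4440 libraries above its level of 0.351 CPM of the library total, and 32 of these were called higher. Of the 24 genes with 3 L4440 libraries above it, 16 rose and 4 fell.

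**Figure D3:**
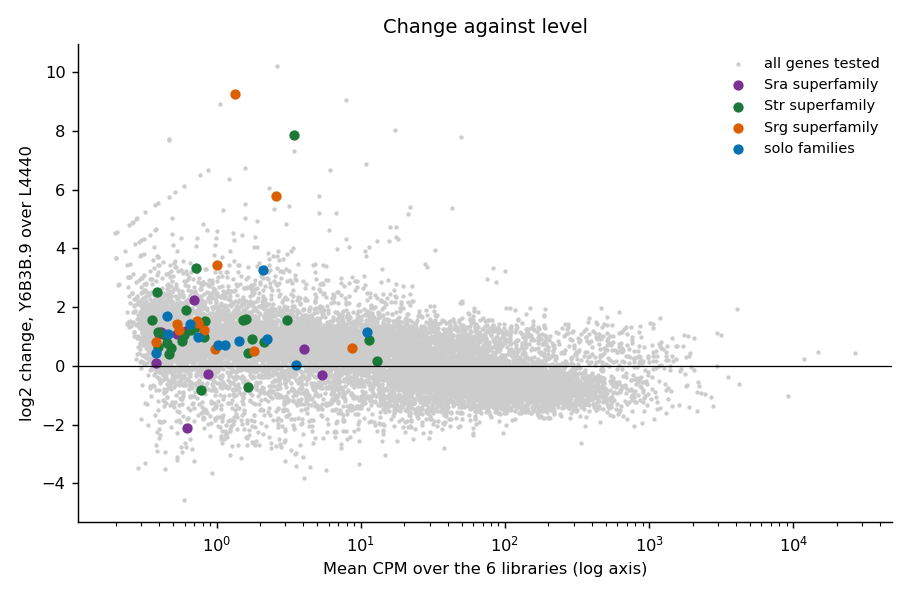
Fitted log2 change (vertical axis) against mean CPM over the 6 libraries (horizontal log axis) for all genes tested (grey) and for the 61 tested members, coloured by superfamily. The members lie at the low end of the level axis, where the grey points too lie mostly above 0; sri-43, srx-13 and srx-14 are the 3 highest members, and the height of srx-14, with no L4440 reads, depends on the prior count of the fit.

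At least 8-fold rises were fitted for 6 members, against 1.36% of all genes tested and 2.18% of those with 60 to 2229 reads, and 3 of these genes were all but absent under the L4440 label. sri-43 (WBGene00005555, Str superfamily, chromosome II, 3143394 to 3144652, minus strand) had 203, 222 and 195 reads in the Y6B3B.9 libraries. It had 0, 2 and 0 reads in the L4440 libraries. The ratio of scaled reads was 269, with an exact 95% counting interval of 74.2 to 2228 that covers counting error only (edgeR adjusted p = 9.44e-11). The fitted log2 change of 7.85 rested on these 2 reads, and was 10.64 without L4440 replicate 2.

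srx-13 and srx-14, of the Srg superfamily, lie head to tail on the minus strand of chromosome IV, with 958 bases between them. srx-13 (WBGene00005904, 1114697 to 1118666) had 162, 161 and 138 reads under the Y6B3B.9 label and 3, 2 and 2 under the L4440 label. It rose from 0.0897 ± 0.027 to 5.10 ± 0.297 CPM (log2 change 5.77, SE 0.25, edgeR adjusted p = 5.66e-11). srx-14 (WBGene00005905, 1111462 to 1113738) had 87, 90 and 66 reads under the Y6B3B.9 label and none in any L4440 library. Taking 3 reads over the L4440 group in place of 0, it was at least 70.3-fold higher (edgeR adjusted p = 3.51e-09). In these 3 receptor genes the labels were separated by far more than the spread between libraries. None of the 3 had an L4440 library above the filter's level, so they were tested only through the label under which they were high.

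The genes beside them also differed, but not to the same degree in every case. Upstream of sri-43, 1489 bases away on the other strand, T10D4.15 had 71, 75 and 47 reads under the Y6B3B.9 label and 0 in each L4440 library, at least 55.9-fold higher by the same floor. On the other side sri-42, 438 bases away on the same strand, had 2 reads in all. Upstream of srx-13, 2827 bases away on the same strand, lies the eggshell gene perm-4, which went from 1239 ± 40.5 to 2503 ± 255 CPM (log2 change 1.02, SE 0.069, edgeR adjusted p = 4.08e-09). Downstream of srx-14, 589 bases away on the other strand, lies ost-1, the gene of osteonectin (SPARC), a protein of basement membranes. It rose by log2 0.73 (SE 0.079). Neighbouring genes were not chosen by a rule, and their part in the receptor reads was not tested.

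The other 3 members with a rise of at least 8-fold were srg-31, str-31 and srw-85. srg-31 had 51, 54 and 60 reads against 6, 5 and 2 and rose by log2 3.44 (SE 0.35, edgeR adjusted p = 3.77e-07). str-31 had 41, 50 and 29 reads against 5, 2 and 3 and rose by log2 3.33 (SE 0.35, edgeR adjusted p = 4.59e-07). srw-85 had 143, 121 and 87 reads against 8, 6 and 17 and rose by log2 3.28 (SE 0.24, edgeR adjusted p = 1.08e-08). None of the 3 overlapped between the labels. srg-31 and str-31 had no L4440 library above the filter's level, so they too were tested only through the Y6B3B.9 label. The nuclear receptor gene nhr-172 starts 327 bases upstream of str-31 on the other strand and had 41, 23 and 15 reads against 2, 5 and 1 (log2 change 3.04, SE 0.50). The upstream neighbour of srw-85, C25F9.11, rose by log2 1.37 and that of srg-31, the touch neuron gene mec-1, was at log2 -0.35 without a call.

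Smaller rises among the steepest were those of sri-20 (log2 change 2.51, SE 0.39), sre-15 (2.23, SE 0.31), sri-40 (1.91, SE 0.36) and srw-86 (1.68, SE 0.36). Each of these 4 genes had at most 40 reads in any library and no overlap between the labels. Each also had no L4440 library above the filter's level and was tested only through the Y6B3B.9 label. sri-20 had 22, 25 and 14 reads under the Y6B3B.9 label and 2, 2 and 5 under the L4440 label. sre-15 had 40, 32 and 32 reads against 5, 9 and 5. Next to sri-20, the abundant gene cash-1 lies upstream on the same strand and fell by 1.22 on the log2 scale.

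sra-33 fell most, and alone among the members by at least 2-fold. This Sra gene (WBGene00005059, chromosome II, 4534736 to 4537241, minus strand) had 5, 8 and 8 reads in the Y6B3B.9 libraries and 25, 18 and 38 in the L4440 libraries, without overlap. Its level went from 1.01 ± 0.291 to 0.238 ± 0.0829 CPM (log2 change -2.12, SE 0.34, edgeR adjusted p = 4.37e-05). No Y6B3B.9 library of sra-33 was above the filter's level, so it was tested only through the L4440 label, under which it was high. Its neighbours on chromosome II, sra-32 and sra-36, had 30 and 3 reads under the Y6B3B.9 label and 6 and 4 under the L4440 label, too few to be tested.

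srh-16 and srh-237, of the Str superfamily and both on chromosome V, also fell. srh-16 had 20, 19 and 12 reads against 27, 22 and 30, or 0.554 ± 0.0712 against 0.999 ± 0.102 CPM (log2 change -0.83, SE 0.24, edgeR adjusted p = 0.00495). srh-237 had 45, 45 and 24 reads against 46, 69 and 48, or 1.23 ± 0.249 against 2.09 ± 0.601 CPM (log2 change -0.73, SE 0.23, edgeR adjusted p = 0.00869). srh-237 did not pass without L4440 replicate 2 (-0.48) or with library totals (-0.44). In both genes every Y6B3B.9 library lay below every L4440 library.

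The fourth fall, that of sre-4, was at the edge of the threshold. It had 135, 174 and 129 reads against 134, 165 and 171, with overlapping levels of 4.84 ± 0.708 and 5.96 ± 0.636 CPM (log2 change -0.30, SE 0.13, edgeR adjusted p = 0.0499). Leaving out replicate 1 of Y6B3B.9 (-0.18) or replicate 2 (-0.22) or 3 (-0.30) of L4440 ended the call, and with library totals the change was -0.011 (edgeR adjusted p from 0.000631 to 0.938 over the alternatives). Of its annotated exons 19.1% overlap T13F2.6 on the other strand, a gene with 51216 reads that fell by 0.71 on the log2 scale.

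No call was made for str-176, srsx-34, srj-14, sre-9, srh-71, srd-64, srd-32, srz-100 and sre-36, whose log2 changes lay between -0.28 and 0.63. The members sri-11 and str-173 did not pass the filter. str-173 had 9, 18 and 18 reads against 4, 9 and 4, and sri-11 had 24, 11 and 8 against 5, 6 and 11, so that both overlapped between the labels.

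By superfamily, 12 of 12 tested Srg genes rose, at a median of 1.33 on the log2 scale, the lowest being srv-7 at 0.53. These counts stand beside 46.4% higher among all genes tested and 66.8% among those with 60 to 2229 reads. Of the 61 tested members 18, 6 of them Srg genes, passed the filter with 3 Y6B3B.9 libraries and no L4440 library above its level, so that they were tested only through the label under which they were high. srv-2, the Srg member with the fewest reads, was at the threshold (log2 change 0.82, edgeR adjusted p = 0.04997, and between 0.0114 and 0.267 under the alternatives). Its call was lost without Y6B3B.9 replicate 1 (0.87) or 3 (0.57) and without L4440 replicate 1 (0.86) or 3 (0.66). In the Str superfamily 20 of 27 rose and 2 fell (median 1.02). In the Sra superfamily 6 of 10 rose and 2 fell (median 0.83), and in the solo families 10 of 12 rose and none fell (median 0.95). Differences between superfamilies were not tested. srg-34, a member of the list of receptors with a described ligand, behaviour or neuron, rose by log2 1.45 (SE 0.30, edgeR adjusted p = 0.000391), with 29, 41 and 28 reads against 6, 13 and 12. sri-39, of the Str superfamily, had 18, 20 and 11 reads against 9, 1 and 4 (log2 change 1.58, SE 0.46, edgeR adjusted p = 0.0057), and 2.49 without L4440 replicate 1. Neither srv-2 nor sri-39 had an L4440 library above the filter's level, so both were tested only through the Y6B3B.9 label.

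The 5 srr genes, looked at together after their values were seen, all rose, and by 0.71 to 1.15 on the log2 scale. Beside srr-4 (1.15) these were srr-2 (log2 change 1.07, SE 0.33), srr-1 (1.00, SE 0.29), srr-6 (0.90, SE 0.24) and srr-3 (0.71, SE 0.22), with mean levels under the Y6B3B.9 label from 0.628 CPM (srr-2) to 15.1 CPM (srr-4). None of the 5 overlapped between the labels. Among all genes tested, 46.4% rose and 85.4% did not overlap. Among tested genes in the members' range of reads, 66.8% rose and 79.7% did not overlap. srr-2 had no L4440 library above the filter's level, so it was tested only through the Y6B3B.9 label. srr-3 did not pass with the length trend removed (0.42, edgeR adjusted p = 0.0984).

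**Figure D4:**
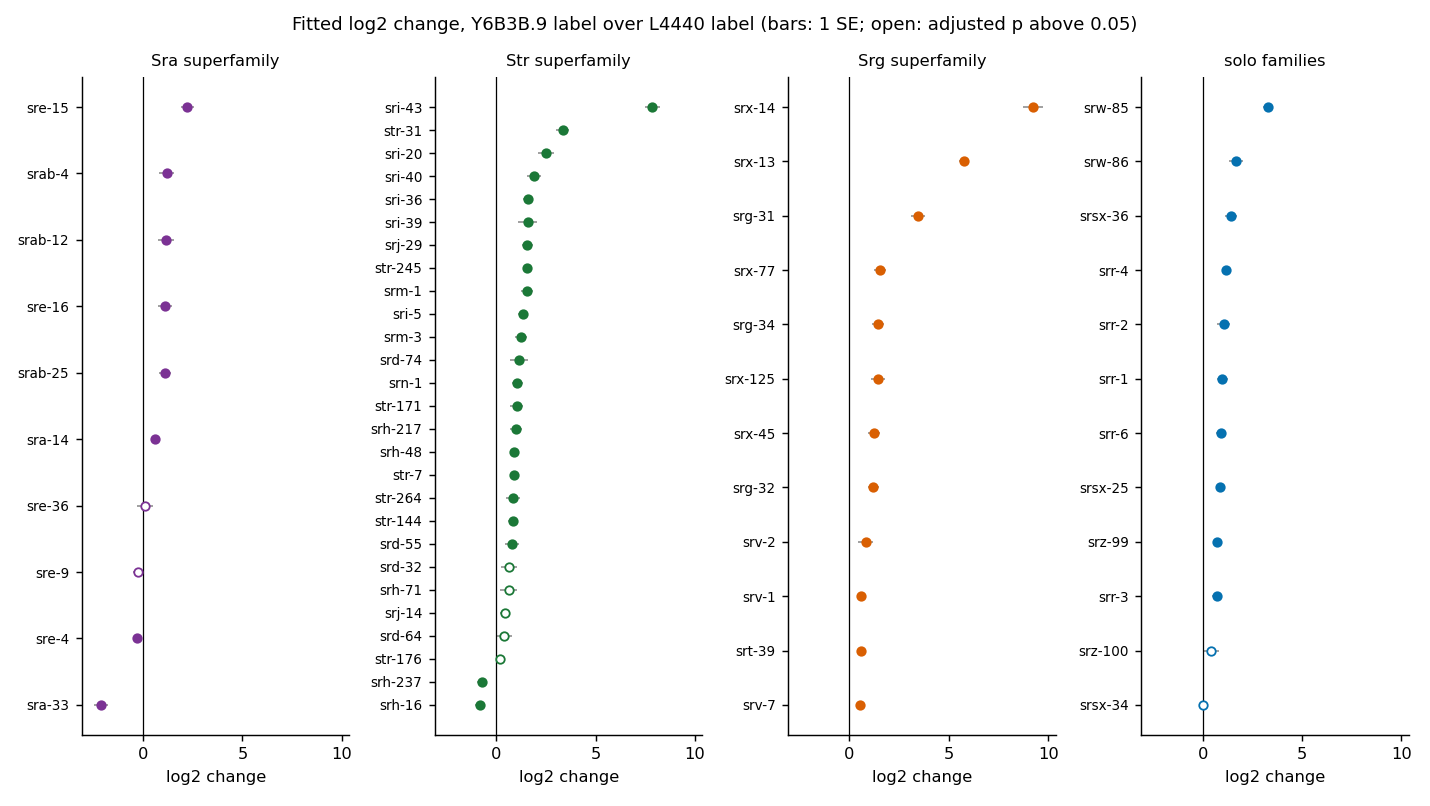
Fitted log2 change of the 61 tested members by superfamily (points; horizontal bars are 1 SE), filled where the edgeR adjusted p was below 0.05 and open otherwise. Filled points to the right of 0 make up 48 of the 61, and sra-33 at -2.12 is the lowest.

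Of 6 pairs of members less than 20 kb apart, 5 had 2 fitted values with reads under both labels. In these the log2 changes were 1.58 and 1.58 for sri-36 and sri-39, 0.90 and 1.15 for srr-6 and srr-4, 0.72 and 0.44 for srz-99 and srz-100, 1.08 and 2.23 for sre-16 and sre-15, and 0.62 and 7.85 for srh-71 and sri-43. In the pair of srx-13 and srx-14, the bound of at least 70.3-fold for srx-14 does not show a difference from srx-13. No L4440 library was above the filter's level for sri-39, sre-16, sre-15, sri-43, srx-13 or srx-14. Those genes were tested only through the Y6B3B.9 label, which limits what agreement within pairs can show. With the length trend removed, sre-16 and srz-99 did not pass (edgeR adjusted p = 0.0709 and 0.131). Genes of one family that neighbour each other can be similar in sequence, and reads could have been shared between such copies. Over 44 members with a tested upstream neighbour, Spearman's rho between the log2 change of the member and of that neighbour was 0.28, and over 30 with a tested downstream neighbour it was 0.29. These describe agreement across genes of the same libraries.

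Exons of 19 members overlap another annotated gene, and since the library kit does not record strand, reads from receptor and partner cannot be told apart where both are on opposite strands. In 7 of the 19 the partner had more reads than the receptor. Without these 19 genes, 44 members were tested, of which 32 rose and 3 fell. Where the partner was tested, it moved in the direction of the receptor for srg-32, srx-125, srv-7, sre-4, srh-48, str-245, srv-1 and srx-45. It went the other way for srd-74 and srsx-25. srd-74 rose by log2 1.14 while tbx-38 on the other strand was at -3.82, and srsx-25 rose by 0.85 while agt-1 was at -0.21. srd-74, srx-125 and srx-45 had no L4440 library above the filter's level, so they were tested only through the Y6B3B.9 label. srd-74 did not pass with the length trend removed (0.79, edgeR adjusted p = 0.110). The partner's share of the receptor reads was not tested.

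Receptors with a described role were almost all below 60 reads. Of 35 such genes 34 were under the threshold, 4 of them with no read, and their median was 5.5 reads over the 6 libraries. str-2, a marker of one of the paired AWC olfactory neurons, had 1 read, and the ascaroside receptor genes srg-36 and srg-37 had 5 and 7. srbc-64 and srbc-66, also known from ascaroside sensing, had 5 and 4 reads, and srx-43 and srx-44 had 13 and 31. Summed over the 34 genes there were 269 reads under the Y6B3B.9 label and 78 under the L4440 label. The 34 genes did not pass the filter on low counts and were not tested singly. In srx-44 the reads were 10, 7 and 12 under the Y6B3B.9 label and 0, 1 and 1 under the L4440 label. In srb-16, which had the most reads of the 34, they were 12, 13 and 7 against 3, 6 and 8.

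Levels summed over many receptor genes were also higher under the Y6B3B.9 label, inside and outside the threshold. The 63 members summed to 139.3, 147 and 148 CPM in the Y6B3B.9 libraries and 76.0, 78.1 and 78.4 CPM in the L4440 libraries. Without sri-43, srx-13 and srx-14 the sums were 126, 132 and 132 against 75.8, 78.0 and 78.4 CPM, a ratio of 1.68. The receptor genes under 60 reads summed to 64.8 ± 0.731 against 33.1 ± 1.24 CPM, a ratio of 1.96. Features of any other kind with 1 to 59 reads, 8292 in all, summed to 780 ± 27.4 against 421 ± 28.1 CPM, a ratio of 1.85. The ratios of sparse receptor genes and of sparse features in general were thus close, and their difference was not tested.

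**Figure D5:**
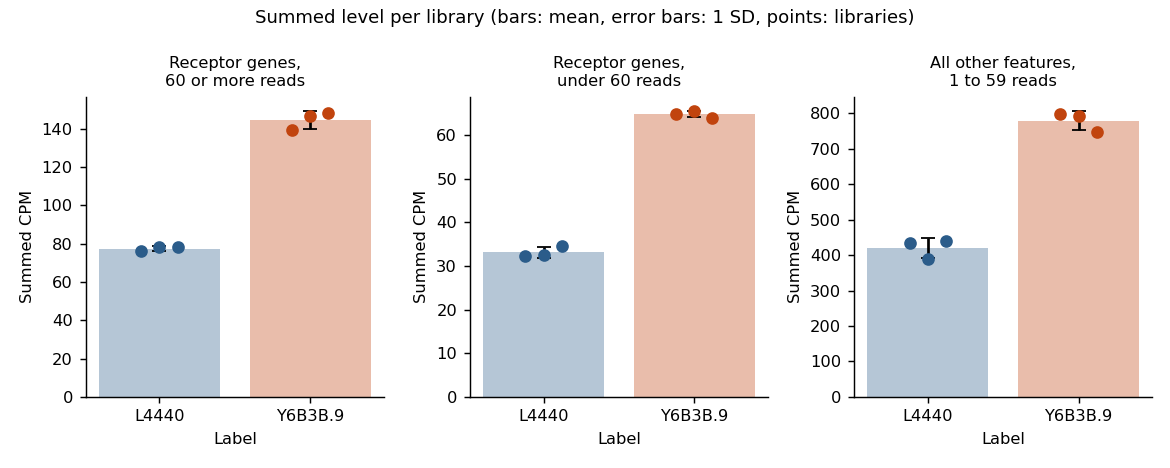
Summed CPM per library (vertical axis from 0; bars are means of 3 libraries, error bars 1 SD, points single libraries) for receptor genes with 60 or more reads, receptor genes under 60 reads and all other features with 1 to 59 reads. In each panel the 3 Y6B3B.9 libraries lie above the 3 L4440 libraries, by ratios of 1.87, 1.96 and 1.85.

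More receptor genes were seen at all under the Y6B3B.9 label. Of the 1309 genes, 746, 745 and 674 had a read in the Y6B3B.9 libraries and 461, 447 and 502 in the L4440 libraries. Features of any kind with a read were also more numerous, at 20455, 20330 and 19698 against 18417, 18195 and 18830 of 46748. At the depth of the smallest library the receptor genes came to 673, 682 and 674 against 424, 411 and 432. The smallest library was the third of the Y6B3B.9 label.

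Genes of the proteins that carry the receptor signal were higher about as often as genes in general. Of 51 genes of chemosensory signal transduction 39 were tested, of which 18 rose and 11 fell (median log2 change 0.43), beside 46.4% higher and 37.7% lower among all genes tested. The 51 genes summed to 1299 to 1363 CPM under the Y6B3B.9 label and 1675 to 1752 under the L4440 label. cng-1, a subunit of cyclic nucleotide-gated channels, rose by log2 2.17 (SE 0.13) from 1.75 to 7.90 CPM. grk-1, a kinase of G protein-coupled receptors, fell by 1.87 (SE 0.062) on the log2 scale, and the G protein alpha subunit gene gpa-16 fell by 1.05 (SE 0.062), as did the phosphodiesterase gene pde-2 by 0.82 (SE 0.053). odr-10, the diacetyl receptor of the same broad kind as the members but with a symbol of its own, had 15 reads in all.

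Genes that direct receptor transcription and transport moved in both directions. Of 26 such genes with a count, 21 were tested, 11 of them higher and 8 lower (median 0.30). Among all genes tested 46.4% were higher and 37.7% lower. The 26 genes summed to 614 to 640 CPM under the Y6B3B.9 label and 603 to 633 under the L4440 label. ttx-1, a homeodomain factor of the AFD thermosensory neuron, rose by log2 3.19 (SE 0.19) from 0.933 to 8.71 CPM. tir-1, an adaptor known from left-right asymmetry of the AWC neurons and from innate immunity, rose by 2.22 (SE 0.076), and sox-2, a transcription factor, by 1.17 (SE 0.089). odr-4, which is needed to bring receptors to the cilium, fell by 0.65 (SE 0.046) on the log2 scale from 87.0 CPM, and was not past the threshold on the deposited RPKM values.

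Genes of the sensory cilium, where the receptors act, were mostly higher when counted gene by gene. Their summed level was much the same, at 283 to 314 CPM under the Y6B3B.9 label and 284 to 291 under the L4440 label. Of 57 such genes with a count, 55 were tested, 43 of them higher and 3 lower (median 1.29, and 1.35 with the length trend removed), beside 46.4% higher among all genes tested and 66.8% among those with 60 to 2229 reads. daf-6, a gene of the glial channel around the amphid cilia, rose by log2 3.24 (SE 0.20), dyf-7, needed to anchor sensory dendrites, by 2.36 (SE 0.20), and klp-11, a subunit of kinesin-II, by 1.29 (SE 0.11). daf-19, the RFX transcription factor that switches on ciliary genes, fell by 1.54 (SE 0.061) on the log2 scale, from 50.1 to 17.2 CPM.

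Markers of other tissues moved as well, and their part in the receptor values was not tested. The counts below stand beside 46.4% higher and 37.7% lower among all genes tested. Of 16 germline and oocyte markers 16 fell, with a summed level of 7120 to 7318 CPM under the Y6B3B.9 label and 16260 to 17189 under the L4440 label. Of 20 neuron markers 12 rose and 4 fell. Their sum was lower under the Y6B3B.9 label, at 657 to 688 against 736 to 768 CPM. The abundant maco-1 alone fell from 340 to 147 CPM (log2 change -1.21), more than the neuron sum did. Markers of intestine, muscle and hypodermis rose in 8 of 10, 6 of 10 and 8 of 9 tested, and fell in 1 each. The summed levels of these 3 lists were 30395 to 32437 against 23695 to 24817 CPM for intestine, 1290 to 1427 against 843 to 1070 for muscle and 227 to 231.3 against 241 to 249 for hypodermis. In the hypodermis list lin-26 alone fell from 195 to 133 CPM, more than the sum did. Of 16 sperm and male markers 10 were tested, 4 higher and 2 lower, with sums of 33.3 to 37.5 against 34.6 to 35.9 CPM and 1 marker at 0 reads.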

How the data were processed

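Per the labels' protocols, the TruSeq RNA kit v2, which keeps no strand information, served for all 6 libraries. The submitters' processing notes name build WBcel235 and the tools STAR 2.4.1d, featureCounts 1.4.6-p4 and bcl2fastq 1.8.4. Their options and the annotation release are not stated there. The files deposited by the authors hold raw read counts and RPKM values for each gene. The deposited RPKM values were divided by library totals recycled along the table (16.7% by their own total), so they served for gene lengths and as alternatives only. The perturbation label gave each library its group, and numbers within a group follow record order.

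The test on counts was that of edgeR 4.0.16 under R 4.3.3 (filterByExpr, TMM, glmQLFit with robust=TRUE, glmQLFTest, Benjamini-Hochberg adjustment over the 14265 genes kept, threshold 0.05), and standard errors were taken from the F statistic. Positions and overlaps came from Ensembl release 115 of the same build; the gene length implied by the deposited values was within 5% of it for 26 of the 63 members, with ratios from 0.492 to 1.61. The members and lists were chosen with earlier results of these data known. Named members are the 10 with most reads, up to 10 largest rises and falls among called genes, the 4 smallest p in each direction, members of the list of described receptors, the 3 just inside the threshold of 60 reads, and up to 4 genes per pathway list by p. The 3 symbols just under the threshold were also named. Others were named after their values were seen. Alternatives were DESeq2 1.42.0 (size factors, Wald test), library totals, other filters, leaving out each library, robust=FALSE, limma-voom, limma-trend (both from limma 3.58.1) on RPKM in log2 form with a pseudocount of 0.1 or 1, and a loess trend on length removed through offsets. Protein copies and promoter motifs were not analysed here. Figures were drawn with matplotlib 3.10.9.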

Additional observations from a re-analysis of the deposited data

How the results depend on the processing

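The counts of members called higher and lower (48 and 4) stayed higher above lower under the alternatives run, with 32 and 4 in the DESeq2 Wald test. With at least 1 CPM in 3 libraries, where 30 members were tested, they were 26 and 1, with 15 and 0 past 2-fold. With at least 120 reads 29 rose (36 genes), and 125 genes had at least 30 reads. The lower count was 2 with library totals and 1 on RPKM with either pseudocount. Past 2-fold, 9 were higher and 0 lower on log2(RPKM + 1), and 19 and 3 with the length trend removed. The median of 1.05 was 0.90 with DESeq2's size factors, 1.34 with library totals, 0.96 with no filter, 0.92 in the DESeq2 Wald test, 0.50 on log2(RPKM + 1) and 0.73 with the length trend removed. Higher counts in the Sra, Str, Srg and solo groups were 2, 11, 7 and 6 with at least 1 CPM; Sra had 3 in the Wald test and with the length trend removed, and the solo families 6 in the Wald test. Lower signalling genes numbered 5 and 4 on RPKM with pseudocounts of 0.1 and 1, and lower trafficking genes 4 and 4; 7 trafficking genes rose in the Wald test. Lower cilium genes numbered 6 with DESeq2's size factors, no filter or the Wald test, and 1 on RPKM.

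Leaving out each library gave 43 to 46 higher and 2 to 4 lower members, 28 to 35 past 2-fold higher, medians from 0.95 to 1.19 and 3 to 5 lower cilium genes. srsx-34, not called, changed sign with DESeq2's size factors (-0.14), no filter (-0.079), the Wald test (-0.14), and in 3 fits without a library, lacking replicate 2 of Y6B3B.9 (-0.061) or replicate 2 (-0.13) or 3 (-0.043) of L4440; over the 6 such fits it lay between -0.13 and 0.26. Of 568 values of 36 named genes under alternatives, 533 kept direction and side of the threshold, 26 lost the call, 3 gained it and 6 changed sign. The causes were not tested. No paired analysis was possible because the labels give the groups no shared replicate numbers, and record order does not pair libraries. Depth limits the members, which had a median of 129 reads in all.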
